A study of Mus musculus with 4 samples.

Results

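The NF-kB pathway and feedback genes are 41 genes that carry, assist or restrain signalling to the transcription factors of the NF-kB family. A gene was taken as measured where a probe set of the array had it as its only symbol, and it was represented by its brightest probe set, that with the highest mean signal over the 4 arrays. In this way 30 of the 41 genes were found among 12393 genes. They fall into 14 canonical, 5 noncanonical and 11 feedback genes. The other 11 (Nfkb1, Irak2, Irak4, Ripk1, Ripk2, Malt1, Chuk, Traf3, Tnip3, Cyld and Irak3) were not analysed here.

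The samples were dendritic cells (DC) from bone marrow of C57BL/6 mice; DC are cells that present antigen to T cells. One group, with 2 arrays, was labelled NKT-modulated, after natural killer T (NKT) cells, and the other, also with 2 arrays, was immature DC, which the design text also calls untreated. NKT cells are T cells that recognise lipids presented by CD1d. The design text has the RNA come from CD11c cells, gives no age of the mice and no dose or time of the modulation, and no label says whether the arrays of a group came from separate cultures, so the spread behind each p-value is that between arrays and could be technical only.

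NF-kB proteins are dimers of the products of Rel, Rela, Relb, Nfkb1 and Nfkb2, held back by IkB proteins in resting cells. In the canonical pathway, receptors of the Toll, IL-1 and TNF families act through adaptors of the MyD88 and TRAF kind on the IKK complex, which marks IkB for destruction. In the noncanonical pathway, receptors such as CD40 release the kinase NIK from degradation, and NIK leads to processing of the Nfkb2 product. Many genes of the pathway, above all its inhibitors, are themselves targets of NF-kB, and DC are known to use both arms during maturation.

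Genes of the pathway were higher in NKT-modulated DC than in immature DC, with the highest median in the feedback genes. Of the 30 measured members, 19 passed limma's test at an adjusted p under 0.05 as higher and 0 as lower; at an unadjusted p under 0.05 the counts were 22 and 1. Over all 12393 genes, 5.99% were called higher and 6.9% lower. Among the 7423 genes with a mean signal of at least 100, a range that holds every measured member, 9.03% were called higher and 10.7% lower. The median log2 change was 0.59 over the members and -0.04 over all genes. By class, 6 of 14 canonical, 4 of 5 noncanonical and 9 of 11 feedback members rose, with median log2 changes of 0.43, 0.87 and 1.13. The canonical ones called were Rel, Rela and Traf6, together with Map3k8, Tbk1 and Ikbke, kinases that stand beside the IKK complex. Both NKT-modulated arrays lay above both immature arrays for 24 of 30 members, as they did for 23.8% of all genes and 25.9% of those with a mean signal of at least 100.

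The counts were also taken under other scalings. Without further normalization 15 members rose, and after cyclic loess or median centring 19 did, with 0 lower in each case. Over all genes, 46.5% of calls were higher. This share was 35.2% without further normalization, 54.0% after cyclic loess and 56.2% after median centring, so the balance of all calls turned with the scaling. With NKT-modulated replicate 1 left out, 14 members rose, 3 of them canonical. With NKT-modulated replicate 2 left out, these counts were 13 and 2. With immature replicate 1 left out they were 14 and 4, and with immature replicate 2 left out 15 and 4.

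**Figure D1:**
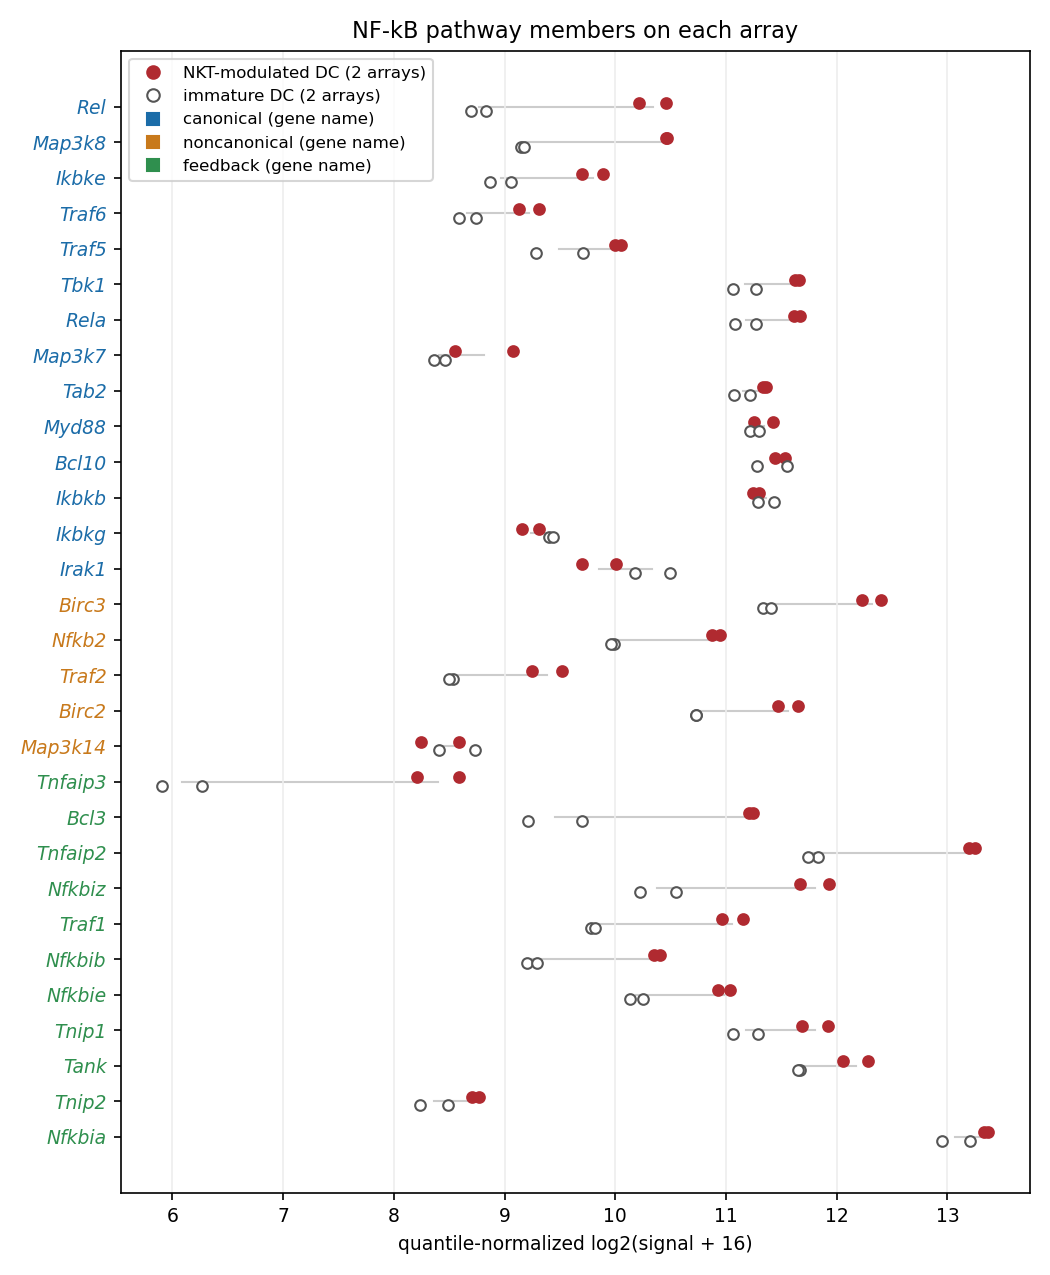
Quantile-normalized log2(signal + 16) of the 30 measured members on each array, 1 gene per line, with filled points for the 2 NKT-modulated arrays, open points for the 2 immature arrays and a grey line between the group means. The groups are apart for every feedback gene, whereas Myd88, Bcl10, Ikbkb and Map3k14 overlap. Among all genes, 23.8% had both NKT-modulated arrays above both immature arrays.

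Markers of T cells moved with these genes. Of 18 measured T and NKT cell markers, 11 were higher and 0 lower by limma (12 and 0 at an unadjusted p under 0.05), and their summed normalized signal was 8775 and 7074 in the NKT-modulated arrays, against 1394 and 1360.4 in the immature arrays. The smallest p were those of Cd3g (log2 change 5.26 ± 0.20), a CD3 chain, Gata3 (4.72 ± 0.19), a T cell transcription factor, and Thy1, a T cell surface protein with 1899 and 1368 in the NKT-modulated arrays and 81.6 and 90.7 in the immature arrays. No marker was at exactly 0; Cd3d, a chain of the T cell receptor complex, had 321 and 227 in the NKT-modulated arrays and 5.05 and 6.02 in the immature arrays. T cells also use the NF-kB pathway. The part of these markers in the changes of the members, and of the ligands, receptors and targets below, was not tested. In RNA of a mixed sample, a change in the share of a cell type and a change in its RNA per cell cannot be told apart. Some DC markers were bright in both groups. Itgax, the gene of CD11c, had 5021 and 4734 in the NKT-modulated arrays and 5687 and 5436 in the immature arrays (adjusted p = 0.204 by limma). Cd74, the invariant chain of MHC class II, had a log2 change of 0.02. Flt3 and Zbtb46 were dimmer, with log2 changes of -0.54 and 0.27, and were not called (adjusted p = 0.0875 and 0.233 by limma). Flt3 had 354.5 and 437 in the NKT-modulated arrays and 531 and 632 in the immature arrays. Both NKT-modulated arrays lay below both immature arrays for 4 of the 10 DC markers, Itgax and Flt3 among them, and above for 3. Over all genes these shares were 32.5% and 23.8%. Of the 10 DC markers Cd86, a costimulatory ligand, was called higher (0.85) and Dpp4 lower (-0.68). The call of Dpp4 was lost without NKT-modulated replicate 1 (adjusted p = 0.119), immature replicate 1 (0.104) or the intensity trend (0.105) and with the mean of its probe sets (0.0563), and that of Cd86 was lost without the intensity trend (0.0586).

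Other marker lists had median log2 changes smaller in size than the 2.22 of the T and NKT cell list. These medians were 0.78 for neutrophil, 0.22 for NK cell, 0.02 for B cell and 0.01 for mast cell and basophil markers. For macrophage and monocyte markers the median was -0.54. Of 8 neutrophil markers 3 were higher, Cxcr2 (log2 change 2.69), Ngp (0.94) and S100a8 (0.62). Ngp was not called without NKT-modulated replicate 1 (adjusted p = 0.146), NKT-modulated replicate 2 (0.0547), immature replicate 1 (0.0816) or immature replicate 2 (0.124), and S100a8 not without NKT-modulated replicate 1 (0.198), NKT-modulated replicate 2 (0.111) or immature replicate 1 (0.142). Without further normalization their adjusted p was 0.0699 and 0.199. Of 9 NK cell markers 2 were higher, Il2rb (4.14) and Nkg7 (2.42), and Klrd1 was lower (-1.91). Of 8 B cell markers Cd79b was higher (2.47). Of 7 macrophage and monocyte markers Mertk was higher (1.09) and 3 were lower, among them Ccr2 (-2.03) and Cd14 (-0.54). Of 6 mast cell and basophil markers Kit was lower (-0.88). Cd14 was not called without NKT-modulated replicate 1 (0.0880) or NKT-modulated replicate 2 (0.0502), and Kit not without NKT-modulated replicate 2 (0.0783), immature replicate 1 (0.0989) or immature replicate 2 (0.112). The summed neutrophil signal was 2151 and 1980.4 in the NKT-modulated arrays and 934 and 1025 in the immature arrays. The ratio of Gapdh signals at the 3′ and 5′ ends, a sign of RNA integrity, was 1.87 and 1.98 in the NKT-modulated arrays. It was 1.76 and 1.44 in the immature arrays, so both NKT-modulated arrays had the higher Gapdh ratio. For Actb this ratio was 1.09 and 1.18 in the NKT-modulated arrays and 1.18 and 1.16 in the immature arrays, which overlap. The part of these values in the results was not tested either.

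Among the transcription factors, Rel changed most. Rel, which encodes c-Rel, a subunit prominent in lymphoid and myeloid cells, had normalized signals of 1394 and 1168 in the NKT-modulated arrays, against 439 and 401 in the immature arrays. A normalized signal is the quantile-normalized value taken back to the linear scale of the deposited signals. The lowest NKT-modulated array was well above the highest immature array, and the log2 change was 1.57 ± 0.13 (SE; each group has n = 2 throughout; adjusted p = 0.00123 by limma), or 2.97-fold on the log2(signal + 16) scale. That scale understates the fold change of dim probe sets.

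Rela, which encodes the p65 subunit of the classic heterodimer, had 3244 and 3101 in the NKT-modulated arrays and 2460.4 and 2146 in the immature arrays. The groups were apart by less than for Rel, with a log2 change of 0.46 ± 0.10 (adjusted p = 0.0327). The call of Rela was lost without NKT-modulated replicate 1 (adjusted p = 0.164), NKT-modulated replicate 2 (0.110) or immature replicate 2 (0.105), and without the intensity trend of the variance (0.159).

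The IKK subunits did not pass the test. Ikbkb, the catalytic subunit IKK-beta, had 2406 and 2514 in the NKT-modulated arrays and 2493 and 2739.8 in the immature arrays. These ranges overlap, and the log2 change was -0.09 with a 95% interval of -0.30 to 0.13. Ikbkg, the regulatory subunit NEMO, had 621 and 556 in the NKT-modulated arrays and 660.3 and 681 in the immature arrays, a log2 change of -0.19 (interval -0.46 to 0.09). Both NKT-modulated arrays were the lower for Ikbkg at this probe set, while another of its 4 probe sets had a log2 change of 0.43 (adjusted p = 0.102).

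The kinases that stand beside the IKK complex were higher. Map3k8, which encodes TPL2, a kinase that is held by the p105 product of Nfkb1 and feeds ERK signalling, had 1399 and 1388 in the NKT-modulated arrays, against 551 and 562 in the immature arrays. Replicates of Map3k8 were closer to each other than for most members, and its log2 change was 1.30 ± 0.09 (adjusted p = 8.36e-04). Ikbke, the IKK-related kinase IKK-epsilon, had 816 and 935 in the NKT-modulated arrays and 451 and 519 in the immature arrays. Its log2 change was 0.83 ± 0.13 (adjusted p = 0.0117), which was lost without NKT-modulated replicate 2 (0.0732), immature replicate 1 (0.0522), the intensity trend (0.0672) or further normalization (0.0505). Tbk1, the related kinase that acts in type I interferon induction, had 3220.1 and 3138 in the NKT-modulated arrays and 2453 and 2126 in the immature arrays. Its log2 change was 0.47 ± 0.10 (adjusted p = 0.0306), lost without NKT-modulated replicate 1 (0.153), NKT-modulated replicate 2 (0.115), immature replicate 2 (0.0953) or the intensity trend (0.153). The other probe set of Tbk1 had 0.26 ± 0.10 and was not called (adjusted p = 0.166).

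Adaptors and kinases of the Toll and IL-1 receptor route did not move as a group. Traf6, a ubiquitin ligase of this route and of CD40 signalling, had 620 and 546 in the NKT-modulated arrays and 369 and 412 in the immature arrays. All 3 of its probe sets had higher values in the NKT-modulated arrays. The log2 change of 0.56 ± 0.13 (adjusted p = 0.0474) was close to the threshold, and the call was lost without NKT-modulated replicate 1 (0.212), NKT-modulated replicate 2 (0.102), immature replicate 1 (0.168) or immature replicate 2 (0.101). It was also lost with a pseudocount of 64 (0.0563), median centring (0.0533), no further normalization (0.256) and no intensity trend (0.123).

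Myd88, the adaptor shared by most Toll receptors, had a log2 change of 0.07 (95% interval -0.16 to 0.30) with overlapping groups. Map3k7, the kinase TAK1, and Tab2, its binding partner, had log2 changes of 0.40 (interval -0.08 to 0.89) and 0.20 (interval -0.02 to 0.42). The 5 probe sets of Map3k7 lay between -0.12 and 0.58, and 0 of them were called. With the mean of its probe sets Tab2 passed as higher, at 0.35 (adjusted p = 0.0308 by limma). Bcl10, the scaffold that joins CARD proteins to MALT1, had 0.07 (interval -0.20 to 0.35). Traf5, a TNF receptor adaptor, had 0.53 ± 0.16 (adjusted p = 0.0890), and its replicates in immature DC were far apart, at 604 and 821. Without immature replicate 2 the adjusted p of Traf5 was 0.0281, and with probe sets under a mean signal of 50 left out it was 0.0467.

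Irak1, a kinase recruited by MyD88, was the member with the lowest change. It had 814 and 1012 in the NKT-modulated arrays and 1141 and 1422 in the immature arrays. Both NKT-modulated arrays lay below both immature arrays, but the log2 change of -0.48 ± 0.15 did not pass (adjusted p = 0.111). A further probe set of Irak1 did pass as lower, also with a log2 change of -0.48 (adjusted p = 0.0361), and the mean over its 4 probe sets had -0.40 (adjusted p = 0.0335).

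Noncanonical members rose by similar amounts, except the gene of NIK. Nfkb2, which encodes the p100 precursor of the p52 subunit, had 1853 and 1967 in the NKT-modulated arrays, against 999.6 and 982 in the immature arrays. Both of its probe sets passed, and the brightest had a log2 change of 0.94 ± 0.09 (adjusted p = 0.00201). Birc3, the gene of cIAP2, a ubiquitin ligase that works with TRAF2 and TRAF3 to keep NIK low, had 4780 and 5407 in the NKT-modulated arrays and 2556 and 2708 in the immature arrays, a log2 change of 0.95 ± 0.09 (adjusted p = 0.00236). Birc2, the gene of its relative cIAP1, had 3198 and 2828 in the NKT-modulated arrays and 1687 and 1684 in the immature arrays. For Birc2 the log2 change was 0.83 ± 0.09 (adjusted p = 0.00363), and the adjusted p without the intensity trend was 0.0550.

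Traf2, the adaptor that brings the cIAP proteins to TRAF3 and also serves TNF receptor signalling, had 592 and 719.6 in the NKT-modulated arrays and 354 and 347 in the immature arrays. The NKT-modulated replicates of Traf2 differed more than the immature ones, and the log2 change was 0.87 ± 0.14 (adjusted p = 0.0129). This call was lost without NKT-modulated replicate 2 (0.0717), immature replicate 1 (0.0550), immature replicate 2 (0.0570) or the intensity trend (0.0631). Map3k14, which encodes NIK, had 369 and 288 in the NKT-modulated arrays and 323 and 409 in the immature arrays. Its groups overlap, and the log2 change was -0.15 with a 95% interval of -0.61 to 0.30. NIK is known to be controlled mainly through the stability of the protein, which arrays do not measure.

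Every measured feedback gene had both NKT-modulated arrays above both immature arrays. This order was seen in 23.8% of all genes and in 25.9% of those with a mean signal of at least 100. Tnfaip3, the gene of A20, an enzyme that edits ubiquitin chains and ends NF-kB signalling, had 369.5 and 279.5 in the NKT-modulated arrays, against 44.1 and 61.3 in the immature arrays. A log2 change of 2.31 ± 0.25 (adjusted p = 0.00311) put Tnfaip3 first among the 30 members. It was also the dimmest member, and its change was 2.60 with a pseudocount of 1 and 1.73 with 64. The A20-binding proteins changed less: Tnip1 had 3848 and 3287 in the NKT-modulated arrays and 2125 and 2496 in the immature arrays, a log2 change of 0.62 ± 0.12 (adjusted p = 0.0251). The call of Tnip1 was lost without NKT-modulated replicate 1 (0.133), NKT-modulated replicate 2 (0.0501) or immature replicate 1 (0.0845), without the intensity trend (0.126) and without further normalization (0.0566). Tnip2 had a log2 change of 0.38 ± 0.15, which did not pass (adjusted p = 0.174).

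The atypical IkB proteins, which act in the nucleus and can raise as well as restrain target genes, both rose. Bcl3, a partner of p50 and p52 dimers, had 2408 and 2349 in the NKT-modulated arrays and 578 and 816 in the immature arrays. The immature replicates were spread more widely than the NKT-modulated ones, yet the gap between groups was larger, at 1.77 ± 0.16 on the log2 scale (adjusted p = 0.00191). Nfkbiz, which encodes IkB-zeta, a factor needed for Il6 and Il12b induction, had 3887 and 3246 in the NKT-modulated arrays and 1486 and 1173 in the immature arrays. Its brightest probe set had a log2 change of 1.42 ± 0.14 (adjusted p = 0.00268) and the other one 1.86 ± 0.27 (adjusted p = 0.00879).

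Of the cytoplasmic IkB genes, Nfkbib and Nfkbie rose at their only probe set. Nfkbib, which encodes IkB-beta, had 1286 and 1336 in the NKT-modulated arrays and 572 and 608 in the immature arrays, a log2 change of 1.13 ± 0.10 (adjusted p = 0.00153). Nfkbie, the gene of IkB-epsilon, an inhibitor that follows NF-kB activation with a delay, had 2092 and 1938 in the NKT-modulated arrays and 1102 and 1200.1 in the immature arrays. Its log2 change was 0.80 ± 0.09 (adjusted p = 0.00451), and the adjusted p without the intensity trend was 0.0574. The probe set of Nfkbib, like the brightest ones of Tbk1, Irak1 and Tnfaip2, carries a suffix for probe sets that may recognise transcripts of more than 1 gene. Such a suffix, set by the manufacturer, is also on the second probe set of Nfkb2 and on the Nfkbia probe set with a log2 change of 0.72.

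Nfkbia, the gene of IkB-alpha, the fast inhibitor that is resynthesised after each round of activation, gave a call that depended on the probe set and the scaling. Its brightest probe set had 10261 and 10562 in the NKT-modulated arrays and 9376 and 7889.6 in the immature arrays. Groups were apart there, but the log2 change of 0.27 ± 0.10 did not pass (adjusted p = 0.157). After median centring the same probe set passed, with 0.51 (adjusted p = 0.0497). The other 3 probe sets all passed, with log2 changes of 0.72 ± 0.10 (adjusted p = 0.00693), 0.64 ± 0.09 (adjusted p = 0.00903) and 0.98 ± 0.21 (adjusted p = 0.0369). With the mean of its 4 probe sets, Nfkbia had a log2 change of 0.65 (adjusted p = 0.00765).

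Adaptors and other induced genes of the feedback class also rose. Traf1, a TRAF without ubiquitin ligase activity that is induced by NF-kB and binds TRAF2, had 2257 and 1970.4 in the NKT-modulated arrays and 865 and 886 in the immature arrays. Its log2 change was 1.25 ± 0.10 (adjusted p = 0.00123). Tank, which binds TRAF proteins and TBK1, had 4946 and 4240 in the NKT-modulated arrays and 3251 and 3206 in the immature arrays. The log2 change of Tank was 0.50 ± 0.10 (adjusted p = 0.0262), lost without NKT-modulated replicate 1 (0.130), immature replicate 1 (0.0819), immature replicate 2 (0.0881), the intensity trend (0.144) or further normalization (0.0515). Tnfaip2, a gene first found as induced by TNF, had 9334 and 9733 in the NKT-modulated arrays and 3625 and 3408 in the immature arrays. Among the members Tnfaip2 had the smallest adjusted p, with a log2 change of 1.44 ± 0.08 (adjusted p = 3.04e-04) and the same rounded change at its second probe set.

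**Figure D2:**
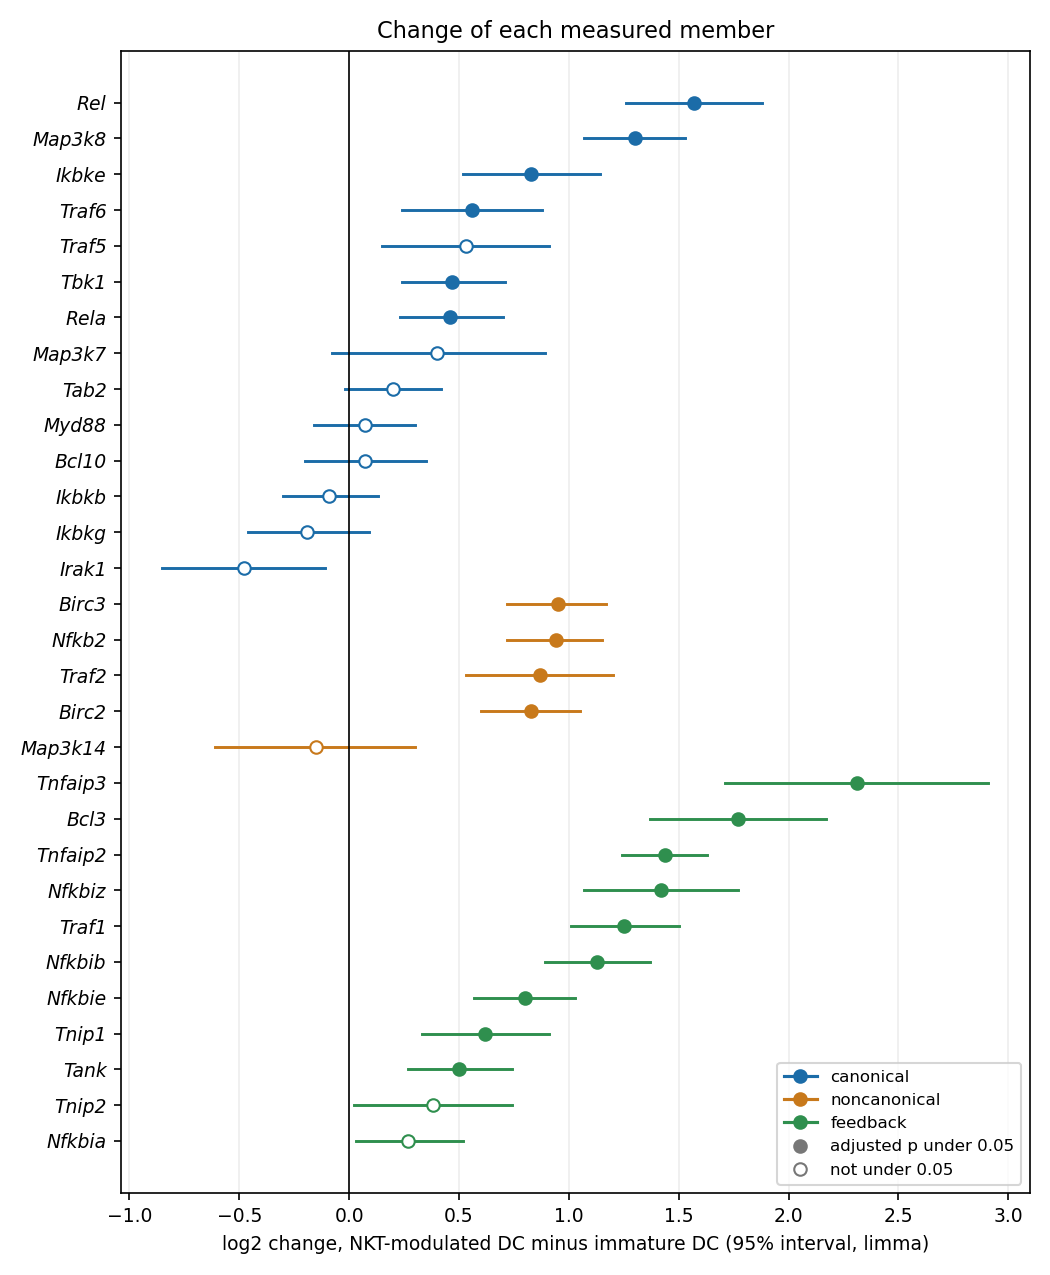
Log2 change of each measured member, NKT-modulated DC minus immature DC, with the 95% interval from limma (n = 2 arrays per group), coloured by class and filled where the adjusted p was under 0.05. The 11 feedback genes all lie above 0, from 0.27 for Nfkbia to 2.31 for Tnfaip3, and Irak1 at -0.48 is the lowest member.

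Of the 30 members, 14 had several probe sets, and none had probe sets called in opposite directions. For 4 of them (Birc3, Nfkb2, Nfkbiz and Tnfaip2) every probe set was called higher, for 5 (Nfkbia, Traf6, Tbk1, Tab2 and Irak1) some were called, and for 5 (Bcl10, Ikbkb, Ikbkg, Map3k14 and Map3k7) 0 were called. Tab2 belongs to the genes whose brightest probe set was not called while another was, at 0.50 ± 0.10 (adjusted p = 0.0252). The sign of the change differed between probe sets for 4 of the uncalled genes, Ikbkb, Ikbkg, Map3k14 and Map3k7. Over all 57 probe sets of the members, 28 were called higher and 1 lower, where 5.36% and 5.7% of 22626 probe sets were called higher and lower.

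**Figure D3:**
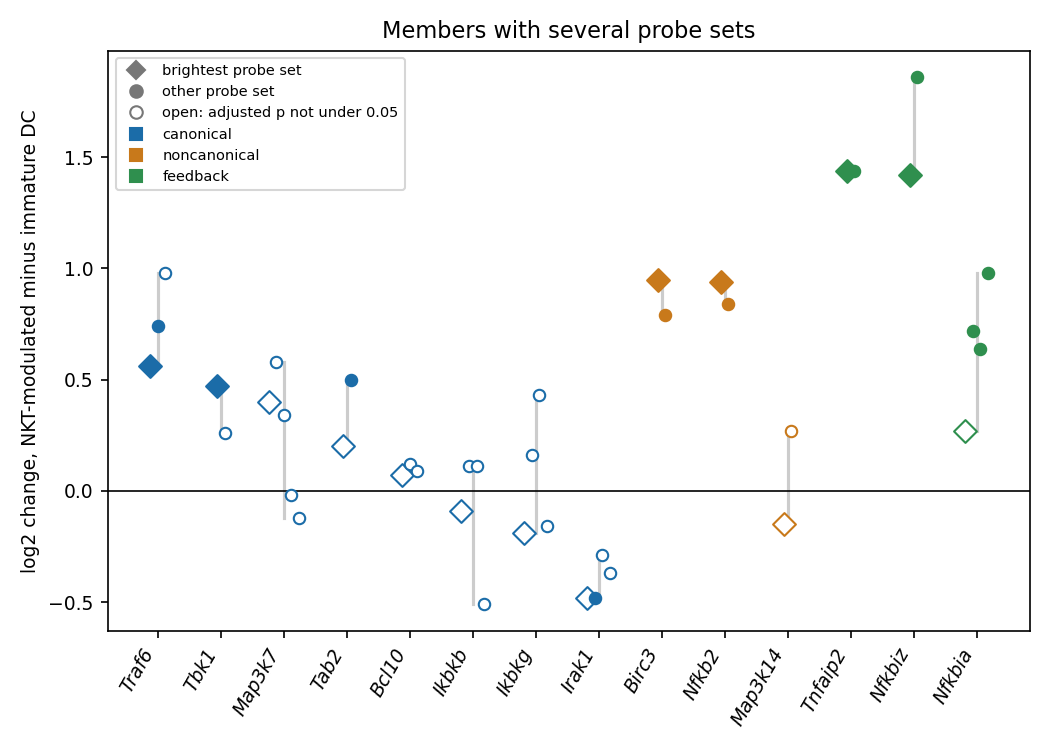
Log2 change, NKT-modulated minus immature DC, of every probe set of the 14 members that have several, with diamonds for the brightest probe set, circles for the others and open symbols where the adjusted p was not under 0.05. The 3 other probe sets of Nfkbia lie at 0.64 to 0.98, above its brightest one at 0.27.

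The sequence just upstream of the genes was searched on both strands for the kB decamer consensus, an NF-kB binding motif. The loose form GGGRNNYYCC was used, with R for A or G, Y for C or T and N for any base. The search covered the 250 bases before each annotated transcript start of the RefSeq promoter table (build GRCm38.p6). Of the 30 members, 27 had an entry, with 39 starts in all. At least 1 start held a match in 11 of these 27 genes, and in 8.23% of all 27025 genes of the table; by start, 7.25% of 32851 held one. Matches stood in 7 of 17 members called higher and in 4 of 10 others. The members had been picked as known pathway genes, several of them as targets of NF-kB, so the share is a description of the list. Bcl3, Traf1, Birc3 and Map3k14 had an entry without a match.

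For 7 genes with a match the last 130 bases before the first listed start are shown, because they are the members with a match that were called higher (Tank, with 4 starts, is left out) or, for Nfkbia, that had most probe sets called. Capitals mark each match, and overlapping matches run together. Sequences are from RefSeq, written 5′ to 3′ along the gene's strand.
Rel (chr11:23770970-23771099, minus strand): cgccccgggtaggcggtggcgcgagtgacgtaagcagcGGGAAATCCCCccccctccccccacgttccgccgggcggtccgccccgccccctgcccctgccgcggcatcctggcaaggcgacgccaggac
Nfkb2 (chr19:46304607-46304736, plus strand): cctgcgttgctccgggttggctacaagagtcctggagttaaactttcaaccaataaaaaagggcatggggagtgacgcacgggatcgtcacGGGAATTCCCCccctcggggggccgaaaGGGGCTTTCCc
Nfkbia (chr12:55492648-55492777, minus strand): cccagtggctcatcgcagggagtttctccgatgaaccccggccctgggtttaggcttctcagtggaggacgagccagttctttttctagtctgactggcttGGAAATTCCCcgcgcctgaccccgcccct
Nfkbie (chr17:45555570-45555699, plus strand): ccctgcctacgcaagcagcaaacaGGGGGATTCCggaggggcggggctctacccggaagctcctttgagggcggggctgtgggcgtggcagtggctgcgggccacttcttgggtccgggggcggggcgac
Tnfaip3 (chr10:19015411-19015540, minus strand): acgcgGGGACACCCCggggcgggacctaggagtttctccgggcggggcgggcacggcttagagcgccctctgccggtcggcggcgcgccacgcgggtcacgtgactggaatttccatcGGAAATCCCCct
Tnip1 (chr11:54962941-54963070, minus strand): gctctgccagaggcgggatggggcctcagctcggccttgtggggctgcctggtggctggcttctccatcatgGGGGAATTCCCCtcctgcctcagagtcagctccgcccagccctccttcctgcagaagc
Tnfaip2 (chr12:111442531-111442660, plus strand): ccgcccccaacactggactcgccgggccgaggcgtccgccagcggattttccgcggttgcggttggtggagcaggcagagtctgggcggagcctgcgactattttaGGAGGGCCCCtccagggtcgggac

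In these windows the match of Nfkbia began 29 bases before the start, that of Tnfaip2 24 and that of Nfkbie 106. Rel holds overlapping matches that began 92 and 91 bases before the start, and Tnip1 holds 3 that began at 58, 57 and 56. Tnfaip3 has matches at 125 and 12, and Nfkb2 has overlapping ones at 39 and 38 and another at 11.

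Ligands that feed the pathway were mostly higher: 9 of the 13 measured rose, 1 fell and the median of their log2 changes was 1.60. Over all genes, 5.99% were called higher and 6.9% lower. The T cell markers given above rose in the same arrays, so the cell type behind a change of a ligand or receptor is not known. Tnfsf11 (RANK ligand) rose by 5.05 ± 0.17, Il1a and Il1b (IL-1 alpha and beta) by 3.71 ± 0.18 and 3.01 ± 0.14, Tnfsf14 (LIGHT) by 2.45 ± 0.16, Tnf by 2.22 ± 0.10, Lta (lymphotoxin alpha) by 2.08 ± 0.21 and Tnfsf9 (4-1BB ligand) by 1.60 ± 0.19. Tnfsf4 (OX40 ligand) and Il33 rose by 0.61 ± 0.11 and 1.00 ± 0.22; their adjusted p was 0.119 and 0.0609 without NKT-modulated replicate 1, 0.103 and 0.149 without NKT-modulated replicate 2, 0.0859 and 0.143 without immature replicate 1, and 0.0881 and 0.134 without immature replicate 2. Ltb, lymphotoxin beta, a ligand of the noncanonical route, went the other way, with 902 and 792 in the NKT-modulated arrays and 1644 and 1732 in the immature arrays (log2 change -0.98 ± 0.10, adjusted p = 0.00291). Cd40lg, the ligand of CD40, was dim in both groups, at 46.0 and 42.1 in the NKT-modulated arrays and 17.2 and 52.4 in the immature arrays.

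Receptors went both ways. There were 8 rises and 5 falls among the 20 measured, and the median change was 0.09 on the log2 scale. The shares called over all genes were 5.99% higher and 6.9% lower. Cd40, the costimulatory receptor of both NF-kB routes, had 7045 and 6359 in the NKT-modulated arrays, against 966 and 980.1 in the immature arrays, a log2 change of 2.76 ± 0.09 (adjusted p = 4.94e-05). Other rises were Il1r1 (1.68), Tnfrsf4 (OX40, 1.30), Cd27 (1.16), Il1rap (0.83), Tnfrsf18 (GITR, 0.82), Tnfrsf9 (4-1BB, 0.72) and Tlr1 (0.70), given as log2 changes. Cd27 had 6.44 and 8.41 in the immature arrays, under the pseudocount, and its change was 2.15 with a pseudocount of 1 and 0.49 with 64. The falls were of Il18r1 (-1.81), Tnfrsf13c (BAFF receptor, -1.18), Tlr3 (-0.79), Tlr7 (-0.55) and Tlr4 (-0.44). Many of these calls rested on all 4 arrays: 4 rose and 1 fell without NKT-modulated replicate 1, 5 and 1 without NKT-modulated replicate 2, 4 and 0 without immature replicate 1, and 5 and 1 without immature replicate 2. Of the receptors named, Cd40, Il1r1, Tnfrsf4 and Tnfrsf9 were called higher in each of those 4 fits. The TNF receptors Tnfrsf1a and Tnfrsf1b had log2 changes of 0.12 and 0.09 and did not pass.

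Pathway components that are not members gave no common direction: 7 rose and 5 fell among the 35 measured, and their median was -0.03. Among all genes, 5.99% were called higher and 6.9% lower. Relb, which encodes the partner of p52 in noncanonical dimers, had 3489 and 3256 in the NKT-modulated arrays and 1704 and 1809 in the immature arrays, a log2 change of 0.93 ± 0.09 (adjusted p = 0.00185). Peli1, a ubiquitin ligase of Toll receptor signalling, rose by 1.04 ± 0.10, and N4bp1, an inhibitor of NF-kB responses, by 0.94 ± 0.09. Pdlim2, a nuclear ubiquitin ligase that targets p65, fell by 1.37 ± 0.14 on the log2 scale. The counts without 1 array lay between 3 and 6 for rises and between 1 and 3 for falls; the lowest counts, 3 and 1, came without NKT-modulated replicate 1.

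Genes known as NF-kB targets were higher in most cases. Of 45 measured, 33 rose and 0 fell by limma (34 and 1 at an unadjusted p under 0.05), with a median log2 change of 1.08. Over all genes 5.99% were called higher, and 9.03% of those with a mean signal of at least 100. The list was chosen with earlier results of these data known, so the count is a description of the list. Without the ligands and receptors that this list shares with those above, 29 of 41 rose. The smallest adjusted p were those of Csf2, the gene of GM-CSF, which T cells also make (log2 change 8.12 ± 0.14, with 9.52 and 6.18 in the immature arrays, under the pseudocount), Cxcl10, an interferon-inducible chemokine (4.04 ± 0.12), Il6 (4.65 ± 0.14) and Cd40. Not every target followed. Outside the rule for naming genes, and chosen after their values were seen, Cxcl2 had 7292 and 6646 in the NKT-modulated arrays and 7848 and 5901 in the immature arrays, and Ccl5 had 4692 and 4237 in the NKT-modulated arrays and 4387 and 5230.4 in the immature arrays. Both pairs of groups overlap.

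**Figure D4:**
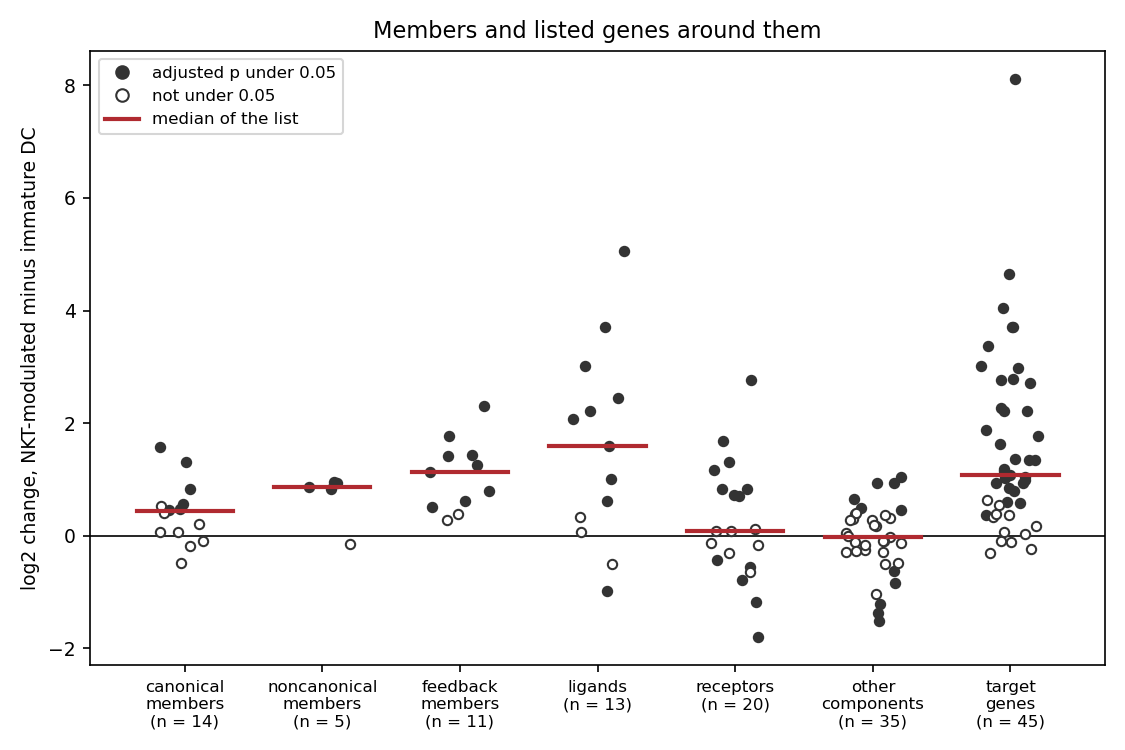
Log2 change, NKT-modulated minus immature DC, of each gene (points, filled where the adjusted p was under 0.05) in the member classes and the lists around them, with the median of each list as a red line. Medians are 0.43, 0.87 and 1.13 for canonical, noncanonical and feedback members, 1.60 for ligands, 0.09 for receptors, -0.03 for other components and 1.08 for target genes.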

How the data were processed

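The authors deposited a linear intensity for each probe set on each array, made with GCOS per the submitters' processing notes; how probes were summarised and arrays scaled is not stated there. The design text names a larger array than the table's rows and a one-cycle kit, where the labels name a two-cycle assay, and it speaks of triplicates; 2 arrays per group were analysed here. Trimmed means of the arrays lay between 581 and 652, and the Pearson correlation of log2 signals was 0.985 and 0.987 within groups and 0.960 to 0.965 between them. The number of arrays limits the precision.

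Of 22690 rows, 64 control probe sets were left out and 22626 were tested without a filter. Of these, 20380 had 1 symbol, 691 several and 1555 none in the platform annotation; 20351 of these were matched by gene ID to RefSeq, from which their symbols were taken. Signals were turned into log2(signal + 16), quantile normalized and fitted with limma 3.58.1 in R 4.3.3 (lmFit, eBayes with an intensity trend, two-sided). The fit had 2 residual and 4.13 prior degrees of freedom. P-values were adjusted by Benjamini-Hochberg over all 22626 probe sets, with a threshold of 0.05. The fit was also run on simulated arrays drawn from its own variance model. That run cannot bear on whether the arrays are technical replicates or on mixed cell types.

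The members and lists were chosen with earlier results of these data known, so no p is adjusted over a list alone. The text gives the value on every array for each called member with a log2 change of at least 0.5 in size and for each transcription factor and IKK subunit; of other lists it names the called ligands and receptors, up to 4 called genes with the smallest p, and the markers whose values bear on the sample. There were 16 alternatives, 14 planned and 2 added after seeing the data.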

Additional observations from a re-analysis of the deposited data

How the results depend on the processing

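The 19 members called higher kept their direction in all 16 alternatives, and 10 of them stayed called in each of the 14 alternatives at the 0.05 threshold. Without the intensity trend 10 members rose, 2 canonical and 2 noncanonical, and 384 genes were higher and 272 lower; 4 receptors rose and 2 fell, and 3 other components rose and 3 fell. At an adjusted p under 0.001, 2 members rose (1 canonical, 0 noncanonical, 1 feedback), as did 131 genes, 5 ligands, 1 receptor, 0 other components and 18 targets, while 22 genes and 0 ligands, 0 receptors and 0 other components fell. At an unadjusted p under 0.001, 3 canonical members, 478 genes, 4 receptors and 4 other components rose, and 404 genes and 1 receptor fell. With the mean of all probe sets 1 member (Irak1) and 2 ligands fell, and with the probe set of smallest p 1 member fell, again Irak1. Ligands that fell numbered 2 without further normalization and 2 without dim probe sets; receptors that rose numbered 5 without further normalization, and receptors that fell 2 after cyclic loess and 2 with a pseudocount of 64. Leaving out 1 array, the lowest and highest counts were 13 and 15 members higher, 2 and 4 canonical, 397 and 510 genes higher, 305 and 406 genes lower, 4 and 5 receptors higher, 0 and 1 lower, and 3 and 6 other components higher, 1 and 3 lower; fewer samples enter those fits. Of uncalled members, the sign turned for Ikbkb with median centring (0.06), for Ikbkg with the mean of all probe sets (0.06) and the probe set of smallest p (0.43), for Map3k14 in the same pair of settings (0.06 and 0.27) and without immature replicate 2 (0.01) or NKT-modulated replicate 2 (0.02), for Bcl10 without immature replicate 2 (-0.07) and for Myd88 without NKT-modulated replicate 1 (-0.01). Without 1 array at a time, the log2 change lay between -0.32 and 0.02 for Map3k14, between -0.07 and 0.21 for Bcl10 and between -0.01 and 0.16 for Myd88. The causes of these differences were not tested. No paired analysis was possible because the labels give the arrays no replicate numbers shared between groups. Where 1 group is left with 1 array, limma assumes that it varies like the other group. Signals below the pseudocount, such as those of Csf2 and Cd27 in immature DC, limit the size of a fold change.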
